A study of Mus musculus with 14 samples.

Results

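Mouse hearts transplanted between animals of the same strain (isografts) were compared at day 70 and day 7 after transplantation. Donor and recipient were both C57/BL6, so these grafts went through surgery and reperfusion without a mismatch of donor and host. The labels name no treatment for them. There were 3 isografts at day 7, labelled No.1 to No.3, and 2 at day 70, labelled No.1 and No.2, each on 1 MG-U74Av2 oligonucleotide array. The remaining 9 arrays of the series carried Balb/c hearts in C57/BL6 recipients, either rejecting (day 7) or tolerizing under anti CD80/86 mAb (days 7 and 70), antibodies against costimulatory proteins that T cells need. The tolerizing allografts served here as a second course from day 7 to day 70 that shares no array with the isografts. The features compared were the 9904 probe sets, of 12422 that are not controls, with a signal above 11 on at least 2 of the 5 isograft arrays. They stand for 7105 genes with 1 symbol, of 8251 on the array. Signals at or under 11 were set to 11, which is called the floor, before log2 was taken. The labels do not say whether hearts came from separate operations or litters, so p-values measure the spread between these samples, which may be technical.

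A transplanted heart passes through ischaemia and reperfusion, which injure the muscle and draw in neutrophils and monocytes even where donor and host match. Monocytes become macrophages that clear dead cells through complement and phagocytic receptors, and fibroblasts then lay down collagen. Heart muscle gets most of its energy from fatty acid oxidation in mitochondria, and injured muscle lowers that programme and turns on genes of the fetal heart.

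The arrays were alike in brightness, with a trimmed mean signal of 100.06 to 100.07, and 73.5% to 76.4% of the probe sets exceeded the floor. Of the members, 7966 (80.4%) were above the floor on all 5 isograft arrays. Just inside the limit lay 600 probe sets above the floor on exactly 2 arrays, with a median highest signal of 18.3. Just outside lay 723 above it on exactly 1, with a median of 14.2. The strain check H2-Ea, an MHC class II chain that C57BL/6 mice do not make, had signals of 2.5 to 12.3 on the isografts and 48.1 to 552 on the allografts. The defining markers of heart muscle were bright on every isograft array (Myh6 3487.4 to 6464.5). Correlations across members were 0.936 to 0.953 between day-7 arrays, 0.932 between the day-70 arrays and 0.916 to 0.951 across days, so the days did not form separate groups. The day-70 array No.1 stood apart from No.2 in several gene groups, and list medians that leaving out 1 array moved by over 1.5 times are given with the value without it. The accessions form 2 runs of unstated cause. Day 7 No.3 and day 70 No.2 are in the first run and the other 3 isografts in the second.

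No probe set passed an adjusted p of 0.05 in limma, neither higher nor lower at day 70 (percent called 0 in each direction), and the smallest adjusted p was 0.06677. At an unadjusted p under 0.05 there were 241 probe sets higher (2.43%) and 320 lower (3.23%), or 152 genes higher (2.14%) and 230 lower (3.24%). The median standard error of a log2 difference was 0.33, the median size of a difference was 0.24, and 338 probe sets (3.41%) differed by more than 1 log2 unit. Genes were therefore described by whether both day-70 arrays lay beyond all 3 day-7 arrays, here called not overlapping. That held for 1119 probe sets higher (11.3%) and 953 lower (9.62%), and for 815 genes higher (11.5%) and 701 lower (9.87%). An exact two-sided permutation test of 2 against 3 arrays cannot go below 0.2, so not overlapping is a description. With no difference and no ties, the same 0.2 is the share expected not to overlap, both directions together. The 815 and 701 genes are therefore not counts of changed genes. The members of each gene list are read against 11.5% and 9.87%, and against a median log2 difference over all genes of 0.03.

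**Figure D1:**
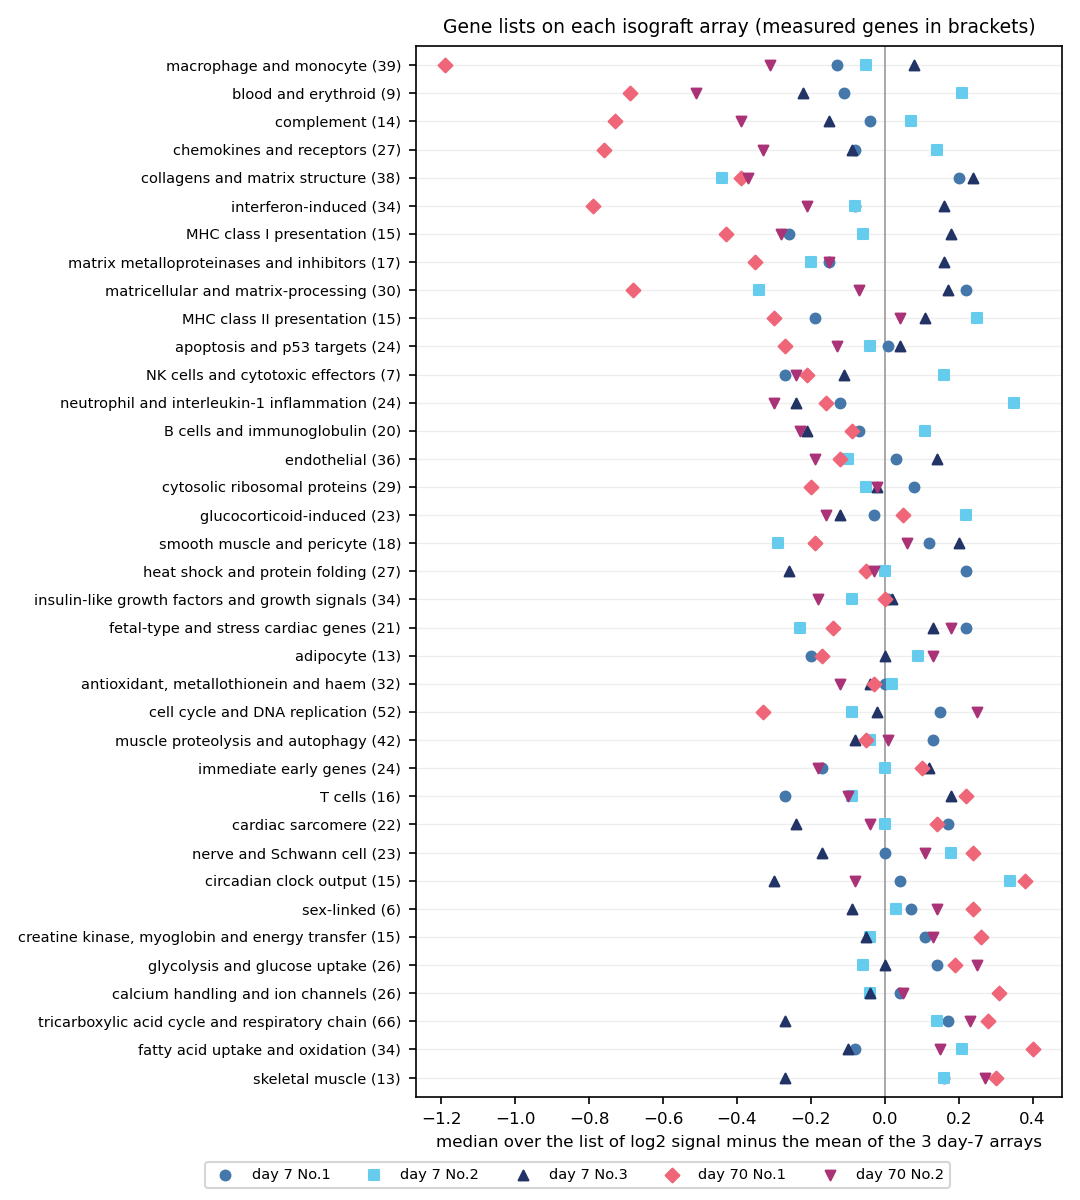
Each row is a gene list, and each point is the median over its measured genes of the log2 signal on 1 isograft array minus the mean of the 3 day-7 arrays. The macrophage list lies at -1.19 on day 70 No.1 and -0.31 on day 70 No.2, and the fatty acid list at 0.40 and 0.15.

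Genes of complement, the blood and tissue proteins that tag debris and microbes for uptake, were lower at day 70, led by the 3 chains of C1q, the recognition molecule of the classical pathway that tissue macrophages make. Of 14 measured complement genes, 7 did not overlap and were lower (50%, against 9.87% of all genes), none was not overlapping and higher, and the median log2 difference was -0.66. C1qa had signals of 1104.2, 1012.4 and 1347.1 at day 7 and of 272.7 and 610.3 at day 70. Both day-70 hearts lay below all day-7 hearts, and No.1 was the lower of them. The difference was 2.81-fold (log2 -1.49, SE 0.34, adjusted p = 0.4646). C1qb went from 986, 830.9 and 998.4 to 197.2 and 518.1 (log2 -1.55, SE 0.38), and C1qc from 1315.1, 1212.9 and 1483.1 to 428 and 742.7 (log2 -1.24, SE 0.29). A second, dimmer C1qb probe set differed by only -0.17, with the days overlapping. The C1q chains are encoded side by side and kept the same order of hearts at day 70. Serping1, the inhibitor of C1, had 1061, 1181.3 and 849.3 at day 7 against 512.4 and 737.3, and C5ar1, the receptor for the C5a fragment, 196.3, 173.1 and 146.3 against 106.7 and 79.2. C5ar1 was lowest in day 70 No.2, the reverse of the order of C1q. Clu (clusterin), which restrains the terminal complex, overlapped and ran from 1255 to 4529.9 within day 7 alone. Without day 70 No.1 the median of the complement list was -0.39, and C1qa still differed by -0.91.

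The windows of 250 bases before the start of transcription are shown for leading genes that were lower together, because such genes often share factors that bind near the start. Of 10 leading genes looked up, 6 had an entry in the RefSeq promoter table (GRCm38.p6), read 5′ to 3′ on the strand of the gene. Capitals mark GAGGAA or its reverse complement TTCCTC, the core letters bound by PU.1, a factor of macrophages and other myeloid cells, and CCAAT or ATTGG, the box bound by NF-Y that is known from collagen promoters. Over 32851 such windows, 23.3% held the first motif on either strand and 33.8% the second. The windows lie at chr4:136886201-136886450 (C1qb, minus strand), chr4:136892915-136893164 (C1qc, minus strand), chr11:82114935-82115184 (Ccl8, plus strand), chr11:82101595-82101844 (Ccl12, plus strand), chr6:4505368-4505617 (Col1a2, plus strand) and chr1:45311288-45311537 (Col3a1, plus strand).
C1qb: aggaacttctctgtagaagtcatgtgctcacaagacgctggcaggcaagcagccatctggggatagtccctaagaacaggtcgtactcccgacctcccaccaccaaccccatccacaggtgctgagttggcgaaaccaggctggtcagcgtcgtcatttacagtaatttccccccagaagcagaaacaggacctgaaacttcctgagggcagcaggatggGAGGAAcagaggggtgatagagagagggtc
C1qc: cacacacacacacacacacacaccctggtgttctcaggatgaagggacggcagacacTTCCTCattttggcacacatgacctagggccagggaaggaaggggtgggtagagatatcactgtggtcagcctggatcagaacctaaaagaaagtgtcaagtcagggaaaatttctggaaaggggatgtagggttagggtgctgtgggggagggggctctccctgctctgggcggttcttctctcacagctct
Ccl8: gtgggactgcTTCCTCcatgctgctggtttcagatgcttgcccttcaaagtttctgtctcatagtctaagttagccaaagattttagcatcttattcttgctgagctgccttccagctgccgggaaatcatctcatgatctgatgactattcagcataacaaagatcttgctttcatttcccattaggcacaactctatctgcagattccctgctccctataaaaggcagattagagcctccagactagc
Ccl12: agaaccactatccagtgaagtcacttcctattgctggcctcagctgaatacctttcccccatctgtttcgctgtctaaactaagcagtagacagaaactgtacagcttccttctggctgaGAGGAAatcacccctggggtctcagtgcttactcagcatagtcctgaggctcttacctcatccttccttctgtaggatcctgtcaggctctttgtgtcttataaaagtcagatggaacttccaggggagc
Col1a2: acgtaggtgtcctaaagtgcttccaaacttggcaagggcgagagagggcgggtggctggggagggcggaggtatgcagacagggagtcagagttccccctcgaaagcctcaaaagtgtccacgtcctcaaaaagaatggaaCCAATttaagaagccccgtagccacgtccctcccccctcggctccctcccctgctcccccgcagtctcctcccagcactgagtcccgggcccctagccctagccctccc
Col3a1: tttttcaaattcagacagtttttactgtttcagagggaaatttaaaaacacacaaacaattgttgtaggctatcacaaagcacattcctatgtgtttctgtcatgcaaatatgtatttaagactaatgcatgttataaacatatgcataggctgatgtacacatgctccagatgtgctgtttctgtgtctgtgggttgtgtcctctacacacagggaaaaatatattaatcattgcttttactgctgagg
The C1qb, C1qc, Ccl8 and Ccl12 windows each held 1 match to the PU.1 letters, the Col1a2 window held 1 CCAAT and the Col3a1 window held neither. A match is a description of letters and not a binding site.

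Macrophage and monocyte genes had the lowest median of the 37 lists, and no list had a larger share of genes not overlapping and lower. Of 39 measured genes, 35 had a negative difference and 20 did not overlap and were lower (51.3%, against 9.87% of all genes), with a median log2 difference of -0.79. The genes divided by how alike the day-70 hearts were. Ctsz (cathepsin Z, a lysosomal protease) had 196.6, 132 and 206.1 at day 7 and 81.3 and 100.9 at day 70, a 1.93-fold difference (log2 -0.95, SE 0.22, adjusted p = 0.4646). Laptm5, a lysosomal membrane protein of blood cells, had 764, 669.1 and 474.2 against 288.5 and 290. A second Laptm5 probe set had 336.3, 424.6 and 702.3 against 179.2 and 266.5, with day 70 No.1 lower than No.2. Slc11a1, the metal transporter of phagosomes, is outside the list and had 89.8, 80.8 and 107.5 against 35.1 and 44. In these 3 genes, on the brightest probe sets, the day-70 hearts were close together and below every day-7 heart, least clearly in Ctsz. Cyba (489.9, 597.5 and 594.4 against 288.6 and 343.7), a subunit of the phagocyte oxidase, and Ctsd (3272.6, 2619.1 and 2487.4 against 1934.5 and 1517.4), cathepsin D, had the same form.

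Other macrophage genes were much lower in day 70 No.1 than in day 70 No.2. Csf1r, the receptor for the main macrophage growth factor, was even at day 7 (409.1, 393.8 and 393) and had 168 and 286.9 at day 70 (log2 -0.86, SE 0.21). Lyz2, lysozyme, had 926.9, 968.1 and 1234.4 against 288.8 and 834.6. Tyrobp, a signalling adaptor of myeloid receptors, had 391, 374.1 and 370.8 against 75.6 and 300. In each of them day 70 No.2 lay below the lowest day-7 heart and nearer to it than No.1 did. A second, dimmer Csf1r probe set differed by only -0.22, with the days overlapping. Adgre1 (F4/80) overlapped, with 115.7, 85.8 and 144.3 against 31.3 and 108.3, and so did Mrc1, the mannose receptor, with 90.7, 126.7 and 148 against 36.9 and 98.3. Arg1, arginase of wound macrophages, had 29.9, 109.6 and 77.6 against 2.8 and 29.2, the last close to the lowest day-7 heart. Without day 70 No.1 the list median was -0.31, and without No.2 it was -1.19. Each of these settings leaves 1 day-70 array, so only the size of the difference is given. Without day 7 No.1 limma called 0 probe sets, and without day 7 No.2 or No.3 it called 1 each. Within the runs the list median was -0.32 in the first and -1.0 in the second. In whole-heart RNA, fewer macrophages and less RNA per macrophage cannot be told apart.

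Several chemokines that draw in monocytes had lower signals at day 70. Of 27 measured chemokines and receptors, 7 did not overlap and were lower (25.9%) and 3 were higher (11.1%), with a median of -0.56, and 19 differences were negative and 8 positive. Ccl8, a ligand of monocyte chemokine receptors, had 261.7, 617.9 and 364.9 at day 7 and 12.8 and 147.2 at day 70. This was the largest difference in size of the 7105 genes (8.97-fold lower, log2 -3.16, SE 0.77, adjusted p = 0.5536), with No.1 near the floor. Ccl7 had 60.1, 73.4 and 56.1 against 2.2 and 30.5, and Ccl12 had 105.2, 111.8 and 113.1 against 8 and 73.1. Both are ligands of Ccr2, and both were under the floor in day 70 No.1. Ccl2, the best known Ccr2 ligand, had 92.9, 138 and 100.5 against 3.6 and 91.4, so No.2 was level with the lowest day-7 heart. Cxcl9, an interferon-gamma-induced ligand for T cells, had 43.7, 59 and 171.6 against 24 and 37.1. Its day-7 values spread widely, with No.3 the highest. The opposite side held Ccl22, a dendritic cell chemokine, with 51.6, 64 and 80.3 against 115.1 and 97. Without day 70 No.1 the median of the chemokine list was -0.33 and the Ccl8 difference -1.40, and the list median was -0.35 without day 7 No.2 and -0.37 without day 7 No.3. The first run alone, with 1 array a day, gave a list median of -0.07.

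**Figure D2:**
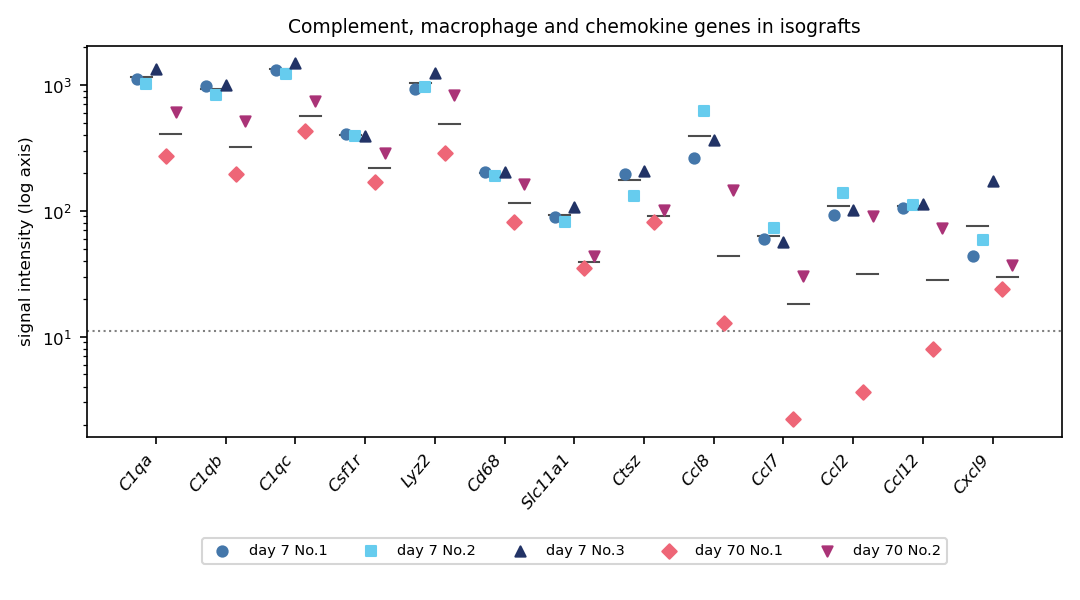
Signal intensity (log axis) of complement, macrophage and chemokine genes on each isograft array, with lines at the geometric mean of each day after the floor was applied (dotted line at 11). C1qa lies between 1012.4 and 1347.1 at day 7 and at 272.7 and 610.3 at day 70, and day 70 No.1 is the lowest array for every gene drawn.

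Interferon-induced genes mostly had lower signals at day 70, and antigen presentation genes less uniformly. Of 34 interferon-induced genes, 13 did not overlap and were lower (38.2%), none was not overlapping and higher, and the median was -0.45 (-0.21 without day 70 No.1, -0.79 without No.2 and -0.28 without day 7 No.3). Isg15, the ubiquitin-like antiviral protein, had 185.3, 172.2 and 163.5 against 83.9 and 96.3 (log2 -0.95, SE 0.30), with the hearts of each day close together. Isg20, an exonuclease, had 68.7, 84.4 and 74 against 7.6 and 32.7. Irf7, the master factor of type I interferon genes, had 71.4, 67.4 and 82.1 against 15.4 and 49.9. A second Irf7 probe set differed by only -0.17 and was brightest in day 70 No.1 (72.1). Among markers set for the interferon list, Ifit3 (137.7, 101.5 and 112.1 against 63.9 and 98.7) did not overlap and was lower (log2 -0.55, SE 0.57). Its day 70 No.2 was level with the lowest day-7 heart. Igtp (105.7, 164.3 and 219.9 against 85.6 and 135.9), Iigp1 (562.1, 817.4 and 1295 against 588.6 and 528.8) and Irf1 (164, 180.4 and 276.9 against 155.3 and 185) overlapped. Of 15 MHC class I presentation genes, 7 did not overlap and were lower (46.7%), with a median of -0.30. Psmb8, a subunit of the immunoproteasome, had 213.8, 254.8 and 341.2 against 144.5 and 199.3. H2-K1, a class I heavy chain, had 1867.8, 1866.1 and 2262.6 against 1494.9 and 1425.2, but another probe set of the gene differed by 1.01 in the opposite direction. H2-Bl had 447.8, 413.3 and 655 against 208.5 and 198.2 (log2 -1.28, SE 0.26, adjusted p = 0.3794). It belongs to a family of near-identical class I genes, so its assignment is uncertain, and the same holds for H2-D4 (96.7, 83 and 131.9 against 30.9 and 47.1). Of 15 class II presentation genes, 3 did not overlap and were lower (20%) and 1 was higher (6.67%). They had 6 positive and 9 negative differences and a median of -0.26, which was 0.04 without day 70 No.1, -0.14 without day 7 No.2, -0.16 without day 7 No.3, -0.41 without day 7 No.1 and -0.02 within the first run, so the list had no steady direction. H2-Aa, a class II chain, had 912.8, 1318.8 and 1476.3 against 665.5 and 854.4, while the invariant chain Cd74 overlapped.

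Some markers of blood and granulocytes had lower signals in the day-70 hearts. Of 9 blood and erythroid genes, 4 had a positive and 5 a negative difference, 4 did not overlap and were lower (44.4%), and the median was -0.68 (-0.45 without day 7 No.1 and -0.05 within the first run). Hba-a1, alpha globin, had 6948.2, 7427.4 and 5718.2 at day 7 and 1331.3 and 4680 at day 70, so day 70 No.1 held much less than any other heart. Alas2, the haem synthesis enzyme of red cells, had 277.3, 413.7 and 468.9 against 73 and 171.1. The summed signal of the erythroid markers was 6187 to 7841 at day 7 and 1404 and 4851 at day 70. That of the 5 macrophage markers was 1918 to 2285 against 766.2 and 1713, and none of the 5 was at the floor on all arrays. The part of blood content in the immune differences was not tested. The neutrophil alarmins S100a8 (141.2, 224 and 68.6 against 20.6 and 65.8) and S100a9 (87.1, 111.4 and 41.7 against 7.7 and 28.5) did not overlap, although S100a8 was close in day 7 No.3 and day 70 No.2. Camp, the cathelicidin of neutrophil granules, had 70.7, 87.2 and 47.4 against 10 and 14.9. Of 24 genes of neutrophil and interleukin-1 inflammation, 5 did not overlap and were lower (20.8%) and 1 was higher (4.17%). Mpo, which marks granulocyte precursors, ranged from 15.8 to 25.8 with the days overlapping.

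Lymphocyte genes showed no common direction. Of 16 T cell genes, 4 did not overlap and were higher (25%) and 1 was lower (6.25%), with a median of 0.03 that lay between -0.13 and 0.22 with 1 array left out. Cd4, the helper T cell coreceptor that some macrophages also carry, had 28.9, 31.3 and 53.8 at day 7 and 78.5 and 60.4 at day 70 (1.89-fold higher, log2 0.92, SE 0.30, adjusted p = 0.7203). The chains of the T cell receptor complex did not follow it. Cd3e had 10.1, 14.1 and 54.2 against 11.5 and 8.8, so only day 7 No.3 was well above the floor, and Cd3g (24.6) and Cd3d (24.8) were brightest in the same heart. Cd8a was above the floor only there, at 15.4. Of 20 B cell and immunoglobulin genes, 4 did not overlap and were lower (20%) and 2 were higher (10%). The B cell receptor chain Cd79a had 51.6, 104.1 and 57.4 against 54 and 90.5.

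Fibrous matrix genes were lower at day 70, with a wide spread between the day-7 hearts. Of 38 measured genes for collagens and matrix structure, 36 had a negative difference, 13 did not overlap and were lower (34.2%, against 9.87% of all genes), and none was not overlapping and higher. The median was -0.45, or -0.71 within the first run and -0.31 within the second. Leaving out 1 array at a time gave medians between -0.69 (without day 7 No.2) and -0.34. Col1a1, a chain of the main scar collagen, had 3650.6, 1731.7 and 3735.6 at day 7 and 924.6 and 1514.1 at day 70 (log2 -1.28, SE 0.61, adjusted p = 0.8825). Day 7 No.2 was nearer to the day-70 hearts than to the other day-7 hearts. A second, dimmer Col1a1 probe set differed by only -0.36, with the days not overlapping. Col3a1, the collagen of young scar, had 1840.1, 1200.8 and 2512.8 against 768.2 and 858.4 (log2 -1.12, SE 0.39), again with No.2 lowest at day 7. Col1a2 had 1793.8, 901.3 and 2117.8 against 348.5 and 667.9, but another probe set of the gene differed by 0.21 in the opposite direction. Col14a1, which spaces collagen fibrils, had 152.1, 74.8 and 164.1 against 11.3 and 73.1. It was near the floor in day 70 No.1, and its difference of -2.10 was -0.75 without that array. Eln, elastin, overlapped (1369.4, 770.1 and 1155.1 against 859.1 and 376.6) and was lowest in day 70 No.2. The summed signal of the 6 fibroblast markers was 9274 to 13930 at day 7 and 7235 and 7811 at day 70. That sum includes Col1a1, Col1a2 and Col3a1. Of the other markers, Lum did not overlap and was lower. Dcn (3757.6, 3976.1 and 3937.1 against 4138.9 and 3522.9) and Pdgfra (323.1, 445.3 and 377.1 against 235.3 and 359.9) overlapped.

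Enzymes and binding proteins of the matrix had smaller shares of non-overlapping genes. Mmp14, the membrane-bound collagenase that activates other metalloproteinases, had 566.7, 408.2 and 800.4 at day 7 and 228.7 and 219.5 at day 70. The day-70 hearts were nearly equal and well below day 7 (2.54-fold, log2 -1.35, SE 0.28, adjusted p = 0.3794), and the difference was -1.38 without day 70 No.1. Of 17 metalloproteinase and inhibitor genes, 4 did not overlap and were lower (23.5%), with a median of -0.29, or -0.15 without day 70 No.1. Of 30 matricellular and matrix-processing genes, 7 did (23.3%), with a median of -0.27. That median was -0.07 without day 70 No.1, -0.68 without day 70 No.2 and -0.59 without day 7 No.2. Sparc, a collagen-binding protein of healing tissue, had 1714.5, 702.1 and 2061 against 443.4 and 662. Postn, periostin of activated fibroblasts, overlapped, with 3322.1, 1033.3 and 2466.8 against 535.8 and 1542.5. Thbs2, a thrombospondin, had 228.2, 141.8 and 381 against 114.5 and 80.5. Day 7 No.2 was again the lowest day-7 heart in all 3.

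Genes of heart muscle energy supply lay on the other side, with small differences in the same direction. Of 66 measured genes for the respiratory chain or the tricarboxylic acid cycle, 59 had a positive difference and 21 did not overlap and were higher (31.8%, against 11.5% of all genes). None was not overlapping and lower. The median was 0.27, or 0.55 within the first run, 0.11 within the second and 0.12 without day 7 No.3. Idh3a, the catalytic subunit of the NAD-dependent isocitrate dehydrogenase, had 429.3, 401.2 and 260 at day 7 and 583.1 and 587.6 at day 70 (log2 0.72, SE 0.31, adjusted p = 0.8349). Cs, citrate synthase, had 1142.3, 1068.2 and 1083.1 against 1471.9 and 1586.7, with the hearts of each day close together. Mdh2, mitochondrial malate dehydrogenase, had 2900.5, 2504 and 2078.3 against 3573.9 and 3174.4. Day 7 No.3 was the lowest for Idh3a and Mdh2, and the list median on that array was -0.27 from the day-7 mean. Of 34 genes of fatty acid uptake and oxidation, 30 had a positive difference, 9 did not overlap and were higher (26.5%) and 1 was lower (2.94%), with a median of 0.28, or 0.15 without day 70 No.1. Cpt2, which hands fatty acids to oxidation inside mitochondria, had 691, 915.5 and 691.5 against 1186.8 and 966.2. Oxct1, the enzyme that lets muscle burn ketone bodies, had 703.5, 803.5 and 776.5 against 1456.1 and 1024.2. Acaa2, the last enzyme of each oxidation cycle, overlapped (3058.9, 4451.1 and 2252.5 against 5172.3 and 3984.7). Ppargc1a, a coactivator of mitochondrial genes, was dim and did not share the direction, with 24.7, 19.3 and 14.5 against 14.8 and 13.5.

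Glucose use, energy transfer and calcium handling genes had medians of 0.24, 0.23 and 0.26. Without day 70 No.1 the calcium median was 0.05 and the energy transfer median 0.13, and the latter was 0.14 without day 7 No.2 and 0.10 without day 7 No.3. Of 26 glycolysis and glucose uptake genes, 4 did not overlap and were higher (15.4%), and of 26 calcium handling and ion channel genes, 5 did (19.2%) and 1 was lower (3.85%). Hk2, the insulin-responsive hexokinase of muscle, had 446.6, 431.5 and 318.9 at day 7 and 683.4 and 546.5 at day 70 (1.55-fold higher, log2 0.63, SE 0.22, adjusted p = 0.7395). Hrc, a calcium-binding protein of the sarcoplasmic reticulum, had 600.5, 776.3 and 701.3 against 1263.1 and 1103 (1.71-fold higher, log2 0.78, SE 0.26, adjusted p = 0.7395). The days were well apart for Hrc and only narrowly apart for Hk2, whose nearest hearts had 446.6 and 546.5. Kcnd3, a channel of early repolarization, had 18.2, 16.1 and 59.8 against 86.3 and 64.2, so day 7 No.3 lay next to the day-70 hearts. Of 22 sarcomere genes, 2 did not overlap and were higher (9.09%) and 1 was lower (4.55%), no larger shares than over all genes. Myh6, the adult heavy chain of myosin, had 4297.2, 4935.9 and 3487.4 against 6464.5 and 4976.4, and Tnnt2, cardiac troponin T, ranged from 4617.4 to 5730.6 with the days overlapping.

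**Figure D3:**
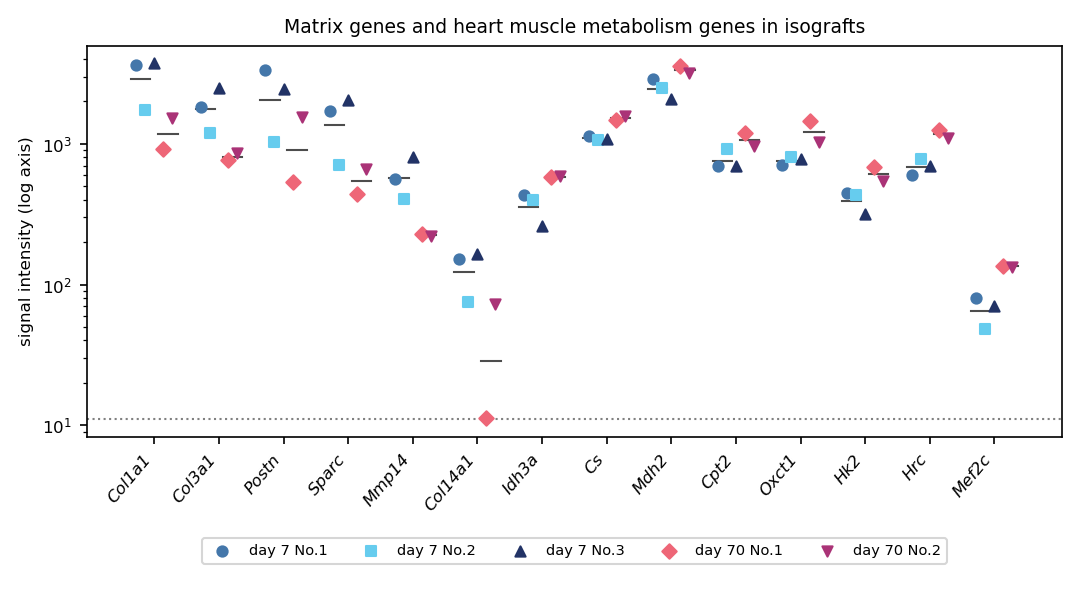
Signal intensity (log axis) of matrix genes and of heart muscle metabolism and regulator genes on each isograft array, with lines at the geometric mean of each day after the floor was applied (dotted line at 11). Mmp14 lies at 408.2 to 800.4 at day 7 and at 228.7 and 219.5 at day 70, and Idh3a at 260 to 429.3 and at 583.1 and 587.6.

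Genes of the stressed and fetal heart had no common direction, and the best known of them varied widely within each day. Nppa, the atrial natriuretic peptide, had 2855, 523.4 and 1467.9 at day 7 and 425.2 and 1077.9 at day 70. Acta1, the skeletal alpha actin that stressed heart muscle makes, had 2478.4, 177.4 and 574.9 against 52.8 and 2097.1. Both genes were high in one heart of day 7 and low in another, and the days overlapped. Of 21 genes on this list, 3 did not overlap and were higher (14.3%) and 1 was lower (4.76%). Mef2c, a factor of cardiac muscle development, was among the higher ones, with 80.4, 48.2 and 70.9 against 136.4 and 133.2 (log2 1.05, SE 0.43). Hopx, a homeodomain regulator of the heart, had 637.9, 1283.8 and 805.4 against 1603.2 and 1569.1. The day-70 hearts were nearly equal for Mef2c and Hopx. Atrial light chains separated 1 day-7 heart from the rest. Myl7, a marker that did not pass the filter, had 397.5 in day 7 No.2 and 5.8 to 8.3 in the other 4 hearts. Adipoq, the fat cell hormone adiponectin, had 134.3 in the same heart and 11.7 to 18.2 in the others. The summed signal of the 2 adipocyte markers on the array was 296.9 in that heart and 114.4 to 170.4 in the others. The part of atrium and fat in the differences was not tested.

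Clock output and glucocorticoid-induced genes held some of the wider differences. Of 15 clock genes, 4 did not overlap and were higher (26.7%) and none was not overlapping and lower. They had 9 positive and 6 negative differences. Their median of 0.15 lay between -0.08 (without day 70 No.1) and 0.38 with 1 array left out. Dbp, a clock-driven factor with a strong daily rhythm, had 68, 75.2 and 9.8 at day 7 and 162.7 and 114.3 at day 70. Nr1d2 (Rev-erb beta) had 189.6, 216.4 and 122 against 342.8 and 335.6. Bhlhe40 (Dec1), a repressor in the clock, had 107.9, 65.8 and 72.9 against 151 and 198.2. The clock genes Per2 (26.5, 28.7 and 11.9 against 19.3 and 26.1) and Arntl (32.8, 17.8 and 99.8 against 32.8 and 26.9) overlapped. Day 7 No.3 was lowest for Dbp and Nr1d2. The labels give no time of day for the collection of the hearts. Fkbp5, a chaperone of the glucocorticoid receptor and one of its main targets, had 150, 177.2 and 110.2 against 41 and 57.9 (log2 -1.55, SE 0.43, adjusted p = 0.697). Of 23 glucocorticoid-induced genes, 4 did not overlap and were lower (17.4%) and 2 were higher (8.7%), with a median of -0.11 (0.05 without day 70 No.2), so Fkbp5 did not stand for the list. Mt2, a metallothionein, had 1845.2, 1220.7 and 1279.9 against 867.1 and 731.1. Of 52 cell cycle genes, 3 did not overlap and were higher (5.77%) and 2 were lower (3.85%). The cell cycle list median was -0.03, but 0.29 within the first run and -0.37 within the second, so it had no common direction.

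The probe sets with the smallest p were dim. Sema3b, a secreted guidance protein, had 10.9, 9.9 and 7.2 at day 7, all under the floor, and 33 and 46.7 at day 70, which is at least 3.57-fold higher (adjusted p = 0.06677). Igfals, the acid-labile subunit that carries insulin-like growth factors in blood, had 35, 35.5 and 34.3 against 12.7 and 15.3 (log2 -1.33, SE 0.20, adjusted p = 0.06677). The hearts of each day were close together in both. The floor gave the day-7 values of Sema3b no spread in the fit. The smallest adjusted p of any probe set in limma depended on the floor. It was 0.5071 with the floor at 0.5 times the main one, 4.06e-09 at 2 times and 0.6808 with a pseudocount of 16. A second probe set of Sema3b differed by 0.31 with the days overlapping, and that of Igfals did not pass the filter. Among brighter genes with the smallest p, C2cd2 had 60.4, 62.6 and 75.5 against 14.5 and 17.9 (4.09-fold lower), and Ninj1, a membrane protein of dying and injured cells, had 108.2, 107.4 and 110.3 against 60.5 and 56.2 (1.86-fold lower). Laptm4a, an endosomal membrane protein, had 1758.8, 1546.8 and 680.8 against 2484.3 and 2992.7 (2.22-fold higher). Nfib, a factor of the nuclear factor I family, had 105, 112.7 and 127 against 235.2 and 176 (1.78-fold higher). Ido1, the tryptophan-degrading enzyme, had 7.5, 31 and 7.1 against 53.1 and 59.3, with 2 day-7 hearts under the floor. Smtn, smoothelin of contractile smooth muscle, had 16.1, 17.3 and 22.9 against 60.8 and 57 (3.17-fold higher). Smtn did not stand for the 18 smooth muscle and pericyte genes, which had 7 positive and 11 negative differences. Of these genes, 3 did not overlap and were higher (16.7%) and 2 were lower (11.1%). Their median was -0.09 (-0.19 to 0.06 with 1 array left out). Acta2, Tagln and Cnn1 overlapped, with differences of -0.43, -0.48 and -0.55. Acp5, an acid phosphatase of osteoclasts and macrophages, had 56.3, 50.2 and 60.3 against 14.6 and 27.2 (2.78-fold lower).

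The tolerizing allografts gave a second comparison of day 70 with day 7, in which limma called 1 of the same probe sets (0.0101%). The test of the difference between both courses called none (0%), with 396 probe sets at an unadjusted p under 0.05 (4.0%) and a smallest adjusted p of 0.165, so no gene is particular to isografts by that test. Of the 815 genes not overlapping and higher in isografts, 63.2% had a positive difference in tolerizing allografts, against 45% of all genes. Of the 701 not overlapping and lower, 67.9% had a negative one, against 54.3% of all genes. Over all genes the differences of both courses correlated weakly (Pearson r = 0.186 across genes, which are not independent), and those of both isograft runs more weakly (r = 0.0945). Not overlapping and higher in both courses were 64 genes (7.85% of the isograft and 18.8% of the tolerizing genes), and not overlapping and lower 86 (12.3% and 14.5%). Of all genes, 4.79% did not overlap and were higher in tolerizing allografts, and 8.33% were lower. In isografts these shares were 11.5% and 9.87%. The shares of the courses cannot be compared directly. The isograft course has 5 arrays and the tolerizing course 6, and fewer arrays overlap less often. With no difference, a share of 0.2 of the isograft genes, both directions together, is expected not to overlap, and the expected share is smaller in the tolerizing course. The collagen list was lower in both courses, with medians of -0.45 in isografts and -0.61 in tolerizing allografts. Col3a1 differed by -1.12 and -1.74, and Col1a1 by -1.28 and -1.94. Fatty acid genes had medians of 0.28 and 0.48, respiratory chain and tricarboxylic acid cycle genes 0.27 and 0.25, and Hrc differed by 0.78 and 0.81. The courses share no array.

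Macrophage and complement lists had unlike medians in the courses, a difference that was not tested for lists. The medians were -0.79 in isografts and -0.15 in tolerizing allografts for macrophage genes, and -0.66 and -0.01 for complement. Without day 70 No.1 the isograft medians were -0.31 and -0.39. C1qa differed by -1.49 and -0.05, with a difference between courses of -1.44 (SE 0.46, adjusted p = 0.8713). Ccl8 differed by -3.16 and 0.02, and Slc11a1 by -1.23 and -0.14. B cell and immunoglobulin genes had medians of -0.17 (-0.09 without day 70 No.2) and 0.41, and cell cycle genes -0.03 (-0.33 to 0.25 with 1 array left out) and -0.45. The donor strain and the antibody treatment differ between the courses along with the immune mismatch, and these cannot be told apart.

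**Figure D4:**
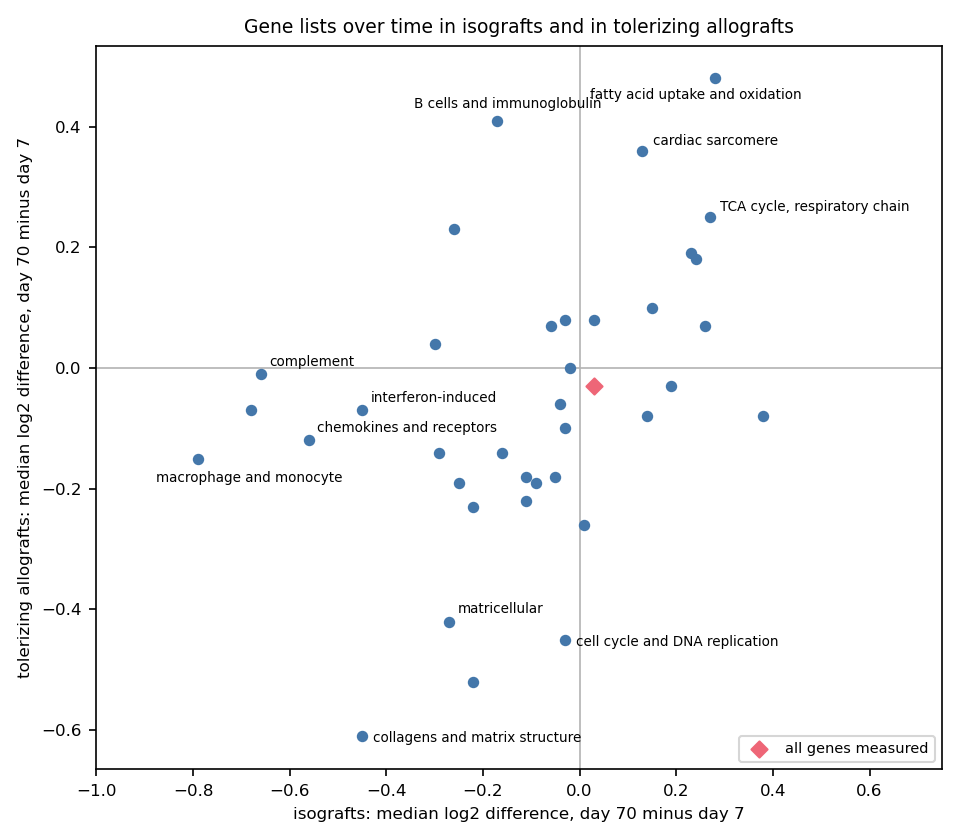
Each point is a gene list, at its median log2 difference (day 70 minus day 7) in isografts (x axis) and in tolerizing allografts (y axis), and the diamond marks all 7105 genes at 0.03 and -0.03. The collagen list lies at -0.45 and -0.61, the macrophage list at -0.79 and -0.15, and the fatty acid list at 0.28 and 0.48.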

How the data were processed

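Gene expression in whole transplanted hearts was read on 14 arrays, 5 of them isografts. The authors deposited 1 signal intensity per probe set and array on a linear scale. The sources used here do not give the software and scaling behind these values, and scanner files were not used. Every array had the same trimmed mean (2% removed at each end), so the deposited intensity was used unscaled. The 66 control probe sets were left out, signals were floored at 11, and log2 was taken. All 5 groups of the series entered 1 fit in limma 3.58.1 (R 4.3.3; lmFit and contrasts, then eBayes with a trend on intensity; 9 residual and 4.47 prior degrees of freedom), which lets the other groups help estimate the spread. P-values are two-sided and Benjamini-Hochberg adjusted over the 9904 probe sets. Of the non-control probe sets, 10833 had 1 gene in the platform annotation, 396 several and 1193 none. RefSeq (GRCm38.p6) held 10817 of those with 1 gene. The brightest probe set stands for a gene.

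The 37 gene lists hold 1292 entries, of which 1021 were on the array and 926 passed the filter, and 33 genes are in more than 1 list. Members and lists were chosen with earlier results of these data known. Named genes are, in each direction, the 15 with the smallest p among those not overlapping and above signal 50 on every array of the brighter day, the markers set for each list, the 3 with the smallest p per list, and H2-Ea. Sema3b, Igfals, Myl7 and Adipoq were picked for their values or as cell markers. Some other list members are printed as examples, chosen after their values were seen.

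The labels number the hearts of both days. The deviations of same-numbered hearts had correlations of -0.064 and -0.157, and with the number exchanged 0.064 and 0.157. The deviations of the day-70 hearts mirror each other, so this check cannot decide whether same-numbered hearts share more than a number. They were not taken as pairs in the main fit. The limma test was tried on simulated data. Alternatives were other scalings, floors, filters, variance models and fits, the run or number as a block, and each isograft array left out. The number of arrays limits the precision.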

Additional observations from a re-analysis of the deposited data

How the results depend on the processing

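Limma called 0 probe sets in the isografts under quantile and median scaling, a floor at 0.5 times the main one, a pseudocount of 16, the filter on all 14 arrays, the filter on all 5 isografts, no intensity trend, robust eBayes, array weights, a fit of the 5 isografts alone, the run as a block, the second run alone and a covariate for the beta-actin ratio. It called 13 (12 higher, 1 lower) with the floor at 2 times the main one and 9 with no filter, and 0 to 37 when 1 isograft array was left out, 37 being without day 70 No.2. Of the 13 and the 9, 7 and 9 had a day at or under 2 times the floor on every array. The test against the course of tolerizing allografts called 4 with that floor and 3 with no filter, and 0 with a day-7 isograft array left out. With the replicate number as a block, which leaves few pairs, limma called 0 in the isografts (smallest adjusted p 0.128, 786 at an unadjusted p under 0.05). With an array left out, probe sets not overlapping numbered 1542 to 3167 higher and 1471 to 2345 lower, since fewer arrays overlap less often. The first run alone (1 array a day, added after the data were seen) gave medians of -0.07 for chemokines, -0.26 for complement, -0.32 for macrophages and 0.55 for the tricarboxylic acid cycle and respiratory chain. The floor at 2 times the main one gave -0.27 for chemokines and -0.49 for complement. With an array left out, medians were -0.76 to -0.33 for chemokines, -0.74 to -0.39 for complement, -0.79 to -0.21 for interferon-induced genes, -1.19 to -0.31 for macrophages, 0.12 to 0.36 for the tricarboxylic acid cycle and respiratory chain and 0.15 to 0.40 for fatty acid genes. The cause was not tested. No sign changed in the 154 alternative values of these 7 list medians (collagens included), but 47 of 814 did over all 37 lists. None changed in the 628 values of the 30 genes ranked by p. Those 30 were picked as not overlapping, so leaving out an array could not change their sign. Of 5089 values of the 244 named genes, 180 had the other sign, and of 76 other probe sets of 56 named genes, 20 did.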

Other observations

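Of 36 endothelial genes, 6 did not overlap and were lower (16.7%) and none was higher, with a median of -0.16, or -0.30 without day 7 No.2. Vcam1, an adhesion molecule of activated endothelium, had 163, 177.7 and 169.2 at day 7 and 51 and 113.7 at day 70 (log2 -1.16, SE 0.39), although another probe set of the gene differed by 0.07. Procr, the receptor for protein C, had 20.3, 28.6 and 40.6 against 17.3 and 9.5.

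The survival genes Bcl2l1, Mcl1 and Cflar were lowest in day 70 No.2, the reverse of the order of C1q. Bcl2l1 (Bcl-xL) had 175.6, 236.8 and 186.3 against 151.2 and 116.8, Mcl1 had 401.9, 371.6 and 384 against 330.6 and 219.8, and Cflar (c-FLIP, which blocks caspase-8) had 67, 44.9 and 44.4 against 41.9 and 20.4. Of 24 genes of apoptosis and p53 targets, 7 did not overlap and were lower (29.2%) and 2 were higher (8.33%), with a median of -0.25, which was -0.13 without day 70 No.1 and -0.15 without day 7 No.3. Cytosolic ribosomal protein genes had a median of -0.11 (-0.20 to -0.02 with 1 array left out), with 1 of 29 not overlapping and lower (3.45%).

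The acute phase gene Saa3 varied widely within day 7, with 173.8, 1055.9 and 11.5 at day 7 and 22.6 and 21.3 at day 70. Myl4, another atrial light chain, had 225.7 on its second probe set in day 7 No.2 and 12.3 to 25.5 in the other isografts, and Car3, a carbonic anhydrase of fat and slow muscle, had 88.1 in that heart and 2.0 to 4.9 in the others.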
